A study of Mus musculus with 4 samples.

Results

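The interferon-stimulated antiviral effector genes described here are 50 genes picked by symbol from the deposited expression table: the IFIT, OAS, MX, IFITM and Schlafen families and related genes. All 50 symbols were found among the 20555 genes of the table. RNA was sequenced from bulk mouse mammary tumours in 2 groups of 2 libraries. MYC-PyMT tumours carried S100a8-cre, Rosa26-LSL-MYC and PyMT, and Control-PyMT tumours are labelled with PyMT alone. PyMT encodes polyomavirus middle T antigen, which drives mammary tumours, so the oncogene was shared by both groups. S100a8 is expressed chiefly by neutrophils and other myeloid cells, and Cre removes the stop cassette (LSL) that keeps the MYC allele silent. The labels do not say which tumour cells expressed MYC, nor give strain, age or sex. Whether a group's libraries represent separate mice is not stated in the labels. The p-values therefore rest on library-to-library spread, and that spread may be technical. The series addresses how MYC affects PyMT tumours.

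Interferons are secreted when cells sense foreign or misplaced nucleic acid. Type I interferons bind a receptor on nearly every cell, and its kinases activate transcription factors that bind a DNA element called the interferon-stimulated response element (ISRE). The genes so induced include the effectors treated here, whose products bind viral RNA, degrade it, block entry or budding, or modify proteins. Tumours and the immune cells within them can express these genes without any virus.

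Levels are given as scaled counts, which are whole reads divided by 1 factor per library and are not corrected for gene length. Totals ran from 31783846 to 34190913 reads per library. Changes are log2 differences, MYC-PyMT minus Control-PyMT, of log2(scaled count + 1), with their standard error (SE) and the adjusted p of limma's two-sided test over 16725 genes with a scaled count of at least 10 in at least 2 libraries. A gene passed the test at an adjusted p under 0.05. The epithelial markers Epcam, Krt8 and Krt18 had 15452 to 28747 scaled counts in MYC-PyMT and 23374 to 28743 in Control-PyMT. None of the 3 passed, but for Epcam and Krt18 both MYC-PyMT libraries lay below both Control-PyMT libraries. Of the 7 epithelial markers looked at, Cdh1 (log2 change -0.62) and Krt19 (-0.57) were lower, where 24.6% of all tested genes were. Krt14 (1.24) was higher, where 23.3% of all tested genes were, and 4 did not pass. Krt14 had 4828 and 13476 scaled counts in MYC-PyMT and 4673 and 2481 in Control-PyMT, so its replicates differed widely. The calls of Cdh1, Krt19 and Krt14 did not hold under every alternative setting. The mouse Myc gene had 3215 and 2815 scaled counts in MYC-PyMT and 1832 and 2820 in Control-PyMT (log2 change 0.40, SE 0.23, limma adjusted p = 0.172). The species of the MYC allele is not given in the labels, so its reads need not be among these.

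Antiviral effector genes were lower in MYC-PyMT tumours across nearly every family. Of the 50 genes, 45 (90%) fell, where 24.6% of all tested genes fell. Ifitm2 rose, where 23.3% of all genes rose, and Isg20, Bst2, Trim25 and Ifitm1 did not pass. The median log2 change was -2.10, beside -0.02 over all tested genes, whose quartiles were -0.74 and 0.64. The list was chosen with earlier results of these data known, so its count is a description. Changes ran from -3.66 for Ifi44 to 0.78 for Ifitm2.

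The fall was large for most members. Changes of -1 or less with a pass were found for 42 of the 50 genes (84%), against 18.3% of all tested genes. Changes of -2 or less were found for 27 members, against 8.33% of all genes, and of -3 or less for 9 members. Both MYC-PyMT libraries lay below both Control-PyMT libraries for 47 members (94%), where 38.7% of all genes did so. Ifitm2 alone among members had both MYC-PyMT libraries above both Control-PyMT libraries, where 37.0% of all genes did so, and the groups overlapped for Ifitm1 and Trim25. All 50 members passed the level filter, and the lowest value of any member was 35.2 scaled counts, for Oas3 in MYC-PyMT replicate 1. In bulk tumour RNA, fewer cells of a type and less RNA per cell cannot be told apart.

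**Figure D1:**
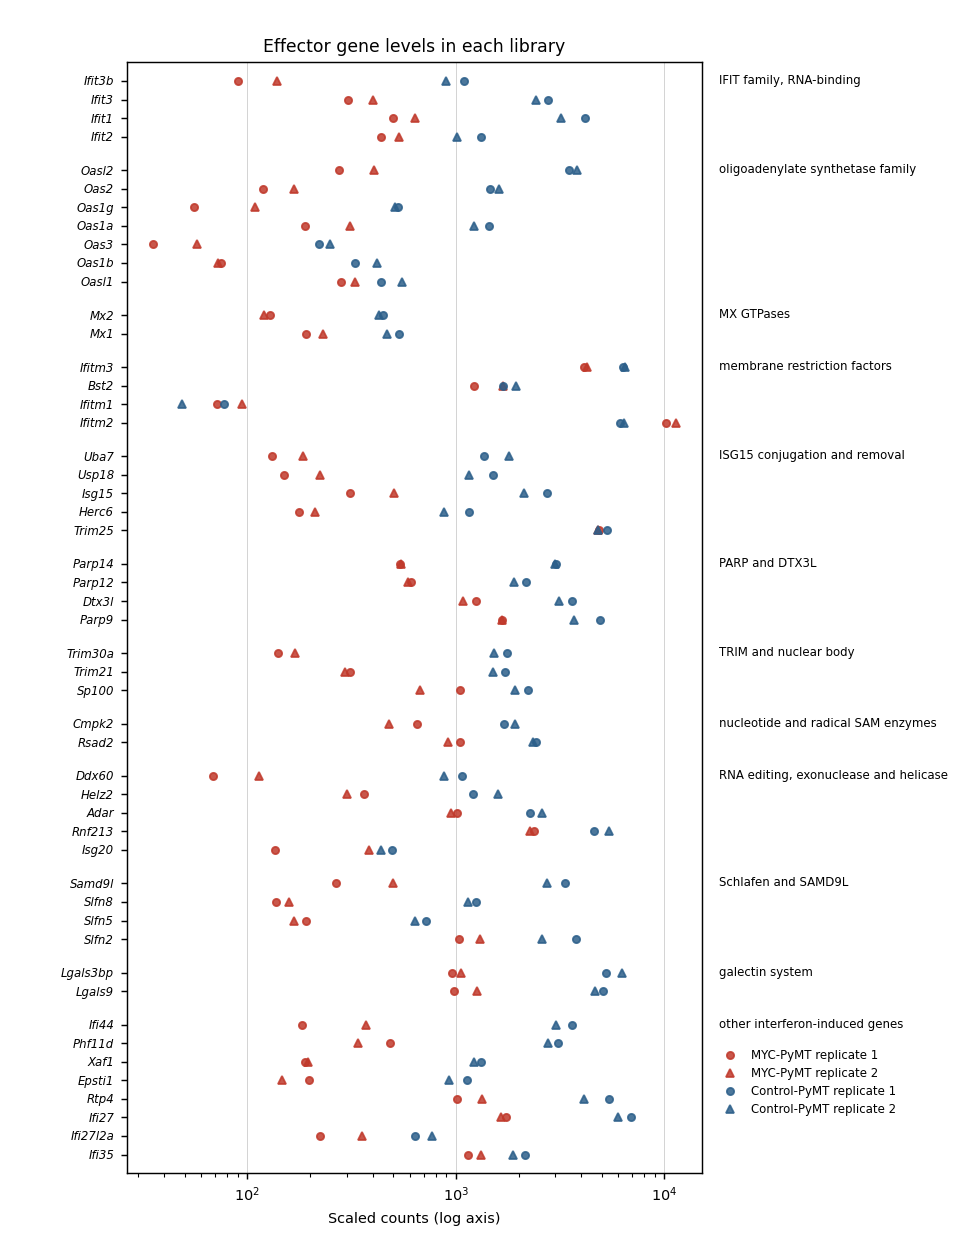
Scaled counts (log axis) of the 50 effector genes in the 2 MYC-PyMT libraries (red) and the 2 Control-PyMT libraries (blue), with circles for replicate 1 and triangles for replicate 2, grouped by role. Red points lie left of both blue points for 47 genes, overlap them for Ifitm1 and Trim25, and lie right of them for Ifitm2.

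**Figure D2:**
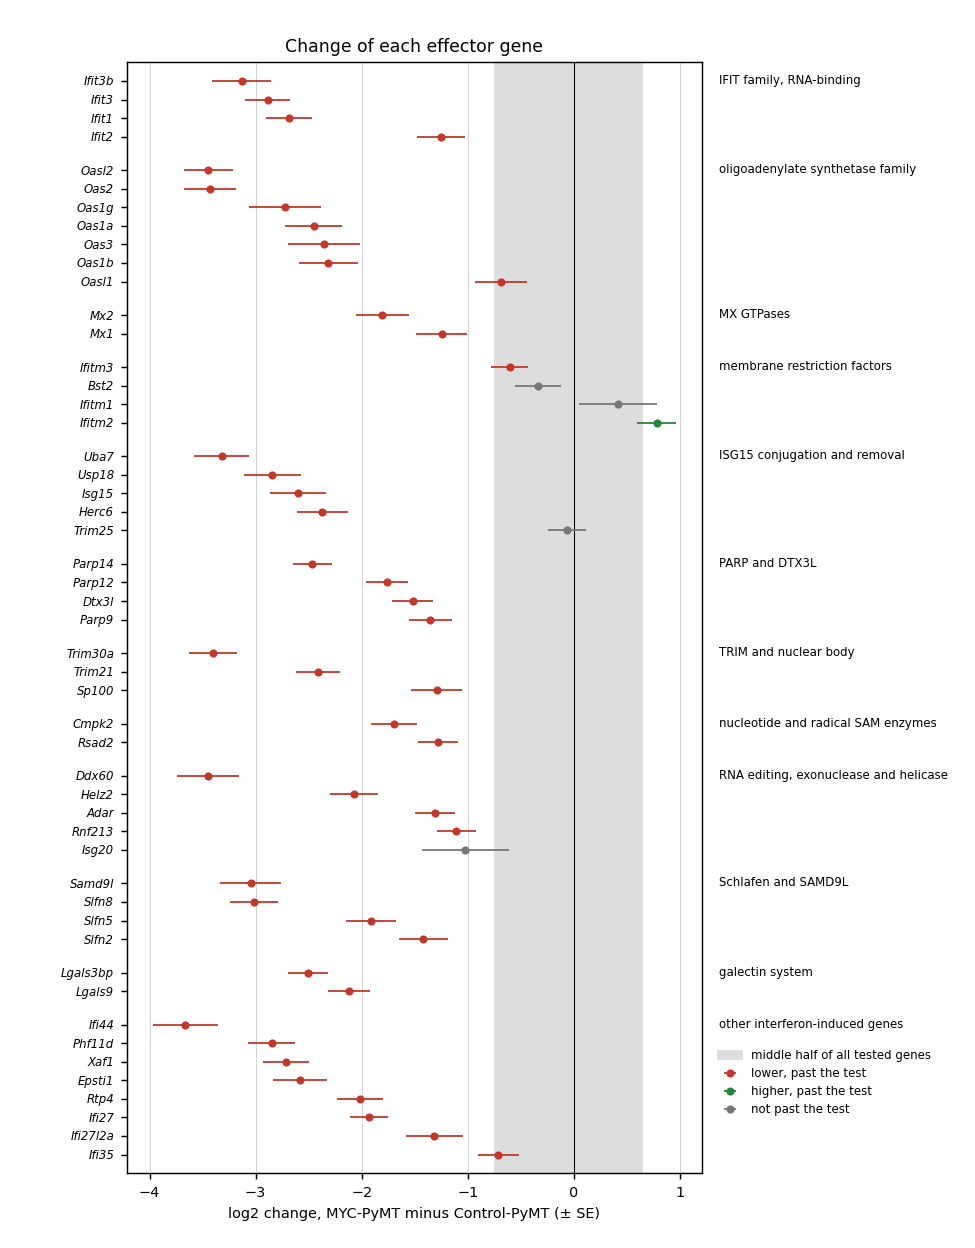
The log2 change of each effector gene, MYC-PyMT minus Control-PyMT, with its SE from 2 libraries a group. The grey band spans the quartiles of all 16725 tested genes, -0.74 to 0.64, and 45 genes that passed the test lie below 0.

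The IFIT genes encode proteins with tetratricopeptide repeats that bind viral RNA and block its translation. All 4 fell. They stand in 1 cluster on chromosome 19 (34550694 to 34650009, GRCm38), all on the forward strand. Ifit3b had 90.6 and 138 scaled counts in MYC-PyMT and 1088 and 901 in Control-PyMT, a log2 change of -3.13 (SE 0.28, limma adjusted p = 3.27e-05). Its neighbour Ifit3 had 304 and 399 scaled counts in MYC-PyMT and 2753 and 2424 in Control-PyMT (log2 change -2.89). The Ifit1 gene, whose product recognises RNA caps that lack host methylation, had 500.2 and 639.6 scaled counts in MYC-PyMT and 4159 and 3187 in Control-PyMT (-2.68). Ifit2 changed least, with 437 and 536 scaled counts in MYC-PyMT and 1317 and 1016 in Control-PyMT (-1.26, SE 0.23, limma adjusted p = 0.00156). The groups were well apart for all 4 genes, and MYC-PyMT replicate 2 was above replicate 1 each time.

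The promoters of Ifit1, Ifit3 and Ifit3b carry the ISRE core. It was searched as TTTC, any 2 bases and TTTC, or as GAAA, any 2 bases and GAAA for the other strand. The stretches below are from RefSeq promoter windows on GRCm38.p6 and are shown because they hold 2 matches each, in capitals. Ifit1 is at chr19:34640749-34640848, Ifit3 at chr19:34583345-34583444 and Ifit3b at chr19:34607741-34607840, all on the plus strand.
Ifit1: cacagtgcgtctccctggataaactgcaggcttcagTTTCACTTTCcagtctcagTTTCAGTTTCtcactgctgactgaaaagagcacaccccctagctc
Ifit3: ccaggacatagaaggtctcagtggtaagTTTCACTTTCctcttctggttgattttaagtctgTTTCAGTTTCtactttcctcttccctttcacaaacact
Ifit3b: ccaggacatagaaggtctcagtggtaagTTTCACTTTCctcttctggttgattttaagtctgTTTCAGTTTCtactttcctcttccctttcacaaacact
The Ifit3 and Ifit3b stretches differed at 0 of 100 bases. Their transcripts are alike too. Of all 50-base windows of Ifit3 transcripts, 51.2% also occur in transcripts of another gene, and for Ifit3b the share was 45.0%, each mainly in the other. How the authors' counting split such reads is not given in the sources used here. The values of Ifit3 and Ifit3b are therefore uncertain apart from each other. Ifit1, with 7.14% of windows shared, and Ifit2, with none, do not have that limit to the same degree. Ifit2 had no ISRE core in either of its windows.

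The oligoadenylate synthetases sense double-stranded RNA and make oligoadenylates that activate RNase L, while some OAS-like proteins lack that activity. All 7 genes fell, with a median log2 change of -2.45. Oasl2 had 274 and 404 scaled counts in MYC-PyMT and 3482 and 3800.1 in Control-PyMT (log2 change -3.45, SE 0.23, limma adjusted p = 8.9e-06). Oas2 followed with 119 and 168 scaled counts in MYC-PyMT and 1458 and 1615 in Control-PyMT (-3.43). Both stood about an order of magnitude apart between groups, the ratio of Control-PyMT to MYC-PyMT means being 10.7 for each. Oas3, the largest synthetase, was the lowest member per kilobase of exon. It had 35.2 and 57.1 scaled counts in MYC-PyMT and 219.8 and 249 in Control-PyMT (-2.36, SE 0.34, limma adjusted p = 0.000417).

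Oasl1, which in mice restrains translation of Irf7, was the exception in size. It had 282 and 327 scaled counts in MYC-PyMT and 437 and 549 in Control-PyMT (log2 change -0.69, SE 0.24, limma adjusted p = 0.0395). The groups did not overlap, but the call ended without Control-PyMT replicate 2 (-0.52, 0.153), without MYC-PyMT replicate 1 (-0.58, 0.219) and without MYC-PyMT replicate 2 (-0.79, 0.0854). Oasl1 and Oasl2 are neighbours on chromosome 5 (114896936 to 114937915), so their changes of -0.69 and -3.45 came from 1 locus. The difference between those changes was not tested.

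The other 5 synthetase genes form a second cluster on chromosome 5 (120730333 to 120907521), where changes ran from -3.43 for Oas2 to -2.32 for Oas1b. Oas1a had 188 and 312 scaled counts in MYC-PyMT and 1446 and 1226 in Control-PyMT (log2 change -2.45, SE 0.27, limma adjusted p = 0.000103). Oas1g had 55.4 and 109 scaled counts in MYC-PyMT and 526 and 511 in Control-PyMT (-2.72). Oas1b, annotated by GENCODE as a polymorphic pseudogene, since laboratory strains differ in whether it is intact, had 74.5 and 72.5 scaled counts in MYC-PyMT and 326 and 419 in Control-PyMT (-2.32). The groups were apart for each of these genes. Oas1a and Oas1g share much sequence, with 57.6% and 45.7% of 50-base windows found in another gene, so their separate values are uncertain. Their promoter stretches, shown as a further copied pair, lie at chr5:120907488-120907587 and chr5:120887574-120887673 on the minus strand. Capitals mark 2 overlapping ISRE cores.
Oas1a: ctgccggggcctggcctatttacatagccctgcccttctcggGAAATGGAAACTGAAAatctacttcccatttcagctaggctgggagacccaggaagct
Oas1g: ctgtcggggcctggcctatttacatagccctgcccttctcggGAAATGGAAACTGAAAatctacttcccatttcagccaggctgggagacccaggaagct
These stretches differed at 2 of 100 bases, both outside the capitals.

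MX proteins are dynamin-like GTPases that trap viral nucleocapsids. Both genes, neighbours on chromosome 16 (97447035 to 97560900), fell by less than the IFIT and OAS medians. Mx1 had 191 and 229.7 scaled counts in MYC-PyMT and 531 and 468 in Control-PyMT (log2 change -1.25, SE 0.24, limma adjusted p = 0.00241). Mx2 had 129 and 119.8 scaled counts in MYC-PyMT and 445 and 428 in Control-PyMT (-1.80, SE 0.25, limma adjusted p = 0.000354). The groups did not overlap for either gene. Many laboratory strains carry defective Mx alleles, Mx2 is annotated as a polymorphic pseudogene, and reads do not show whether protein was made.

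The membrane restriction factors were the one group without a common direction. IFITM proteins sit in cell and endosome membranes and hinder virus entry, and BST2 (tetherin) holds budding virus at the surface. Ifitm2 had 10215 and 11346 scaled counts in MYC-PyMT and 6145 and 6386 in Control-PyMT (log2 change 0.78, SE 0.18, limma adjusted p = 0.00597). Ifitm3 had 4130.1 and 4262 scaled counts in MYC-PyMT and 6315 and 6445 in Control-PyMT (-0.60, SE 0.18, limma adjusted p = 0.0174). The groups were apart in both cases, in opposite directions, though the genes lie within 1 cluster on chromosome 7 (140954837 to 141010770). Ifitm1, between them, had 71.5 and 94.5 scaled counts in MYC-PyMT and 77.6 and 48.4 in Control-PyMT (0.42, SE 0.37, limma adjusted p = 0.376), with overlapping groups. Bst2 had 1221 and 1682 scaled counts in MYC-PyMT and 1685 and 1941 in Control-PyMT (-0.34, SE 0.21, limma adjusted p = 0.223), where the nearest libraries of the groups almost touched.

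The calls of Ifitm2 and Ifitm3 were lost when a MYC-PyMT library was left out, and that of Ifitm2 also with transcript length taken into account. The rise of Ifitm2 ended without MYC-PyMT replicate 2 (log2 change 0.71, limma adjusted p = 0.0837), and with the trend of values on transcript length removed from each library it was 0.24 (0.411). The fall of Ifitm3 did not pass without MYC-PyMT replicate 1 (-0.58) or without MYC-PyMT replicate 2 (-0.63), beside a change of -0.60 in all 4 libraries. Its call stood with the length trend removed. With the length trend removed, Bst2 passed the test (-0.72, 0.0226). Ifitm2 also shares sequence: 48.5% of its 50-base windows occur in another gene, and 40.9% of its exon bases are overlapped on the same strand by Gm45717, which was not analysed here. Ifitm3 is among the 45 members with under 15% of windows shared. Promoter stretches of both genes are shown because they hold the ISRE core although Ifitm2 rose. They lie on the minus strand of chromosome 7, Ifitm2 at chr7:140955953-140956052 and Ifitm3 at chr7:141010695-141010794, with the cores in capitals.
Ifitm2: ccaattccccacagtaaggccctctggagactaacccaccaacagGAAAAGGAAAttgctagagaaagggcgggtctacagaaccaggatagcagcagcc
Ifitm3: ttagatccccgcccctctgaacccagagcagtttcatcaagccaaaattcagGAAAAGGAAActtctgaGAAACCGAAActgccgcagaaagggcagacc
Ifitm2 had 1 match and Ifitm3 had 2.

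ISG15 is a ubiquitin-like protein that is joined to newly made proteins by UBA7 (the activating enzyme) and HERC6 (the main mouse ligase) and removed by USP18, which also damps signalling at the type I receptor. These genes fell together. Uba7 had 131 and 186 scaled counts in MYC-PyMT and 1368 and 1794 in Control-PyMT (log2 change -3.32, SE 0.26, limma adjusted p = 1.71e-05). Isg15 itself had 311 and 503 scaled counts in MYC-PyMT and 2735 and 2112 in Control-PyMT (-2.60, SE 0.26, limma adjusted p = 6.32e-05). Conjugation and removal genes were thus low in the same 2 libraries. Usp18 had 149.9 and 223 scaled counts in MYC-PyMT and 1508 and 1151 in Control-PyMT (-2.84). Herc6 had 177 and 212 scaled counts in MYC-PyMT and 1156 and 876 in Control-PyMT (-2.37). No library of MYC-PyMT reached a Control-PyMT library for any of these 4 genes.

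Trim25, a ubiquitin ligase that activates the RNA sensor RIG-I and can also join ISG15 to proteins, stood apart in this group. It had 4834 and 4805 scaled counts in MYC-PyMT and 5285 and 4818 in Control-PyMT (log2 change -0.07, SE 0.18, limma adjusted p = 0.781). Both MYC-PyMT libraries lay beside the lower Control-PyMT library. Isg15 and Trim25 promoters are shown whole, over 300 bases, as those of a gene that fell and of one that did not pass the test. The Isg15 window (chr4:156200769-156201068, minus strand) has 3 overlapping ISRE cores, in capitals. The Trim25 window (chr11:88999153-88999452, plus strand) has no ISRE core and has the E-box CACGTG, the letters that MYC and its partner MAX prefer, in capitals.
Isg15: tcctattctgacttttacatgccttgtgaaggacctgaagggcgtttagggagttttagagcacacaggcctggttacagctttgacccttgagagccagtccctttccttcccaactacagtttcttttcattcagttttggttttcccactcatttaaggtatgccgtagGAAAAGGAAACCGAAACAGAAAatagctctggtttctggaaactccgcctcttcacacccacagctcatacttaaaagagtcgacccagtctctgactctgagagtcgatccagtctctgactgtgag
Trim25: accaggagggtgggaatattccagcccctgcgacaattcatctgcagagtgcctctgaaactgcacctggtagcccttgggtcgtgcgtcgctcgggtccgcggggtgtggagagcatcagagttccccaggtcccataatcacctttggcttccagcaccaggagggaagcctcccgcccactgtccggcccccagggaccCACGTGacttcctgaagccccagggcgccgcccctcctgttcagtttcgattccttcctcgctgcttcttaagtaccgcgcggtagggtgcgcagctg
A match in such a window is a description of its letters and not a site shown to be bound.

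Across the promoter windows, 40 of the 50 members had a RefSeq sequence. Oas1b, Oas2, Mx1, Mx2, Usp18, Parp9, Parp14, Ifi27, Ifi27l2a and Rtp4 had no entry. The ISRE core was present for 17 of the 40 members, or in 39.6% of their 48 windows, beside 3.44% of all 32851 windows of the same length and 3.80% of the 11565 tested genes with a window. Members with the core had a median log2 change of -2.45, and 15 of 17 fell. Members without it had a median of -1.70, and 20 of 23 fell. The ranges overlapped widely, from -3.45 to 0.78 with the core and from -3.66 to 0.42 without, and Ifi44, the member that changed most, had no match in its window.

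The gamma-activated sequence (GAS), searched as TTCNNNGAA, which reads the same on both strands, was found for 7 of 40 members, beside 8.49% of tested genes. These 7 were Adar, Bst2, Ifi35, Ifit2, Ifitm3, Isg20 and Oas1a, with a median log2 change of -1.02. The E-box CACGTG was found for Trim25 alone among the 40 members, beside 11.1% of tested genes. Further ISRE examples are Ddx60 (chr8:61928006-61928105, plus strand) and Trim21 (chr7:102565433-102565532, minus strand), shown because their 2 matches are spaced in the first gene and overlap in the second.
Ddx60: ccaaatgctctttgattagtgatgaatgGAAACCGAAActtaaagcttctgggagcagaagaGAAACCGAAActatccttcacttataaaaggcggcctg
Trim21: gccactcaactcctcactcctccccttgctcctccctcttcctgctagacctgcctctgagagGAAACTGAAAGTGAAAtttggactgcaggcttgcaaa
Both genes fell, as described with their groups.

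The PARP members and DTX3L transfer ADP-ribose or ubiquitin to proteins, and PARP9 and DTX3L act as a complex. All 4 genes fell, with a median log2 change of -1.64. Parp14 had 540.4 and 544 scaled counts in MYC-PyMT and 3015 and 2979 in Control-PyMT (log2 change -2.46, SE 0.19, limma adjusted p = 1.46e-05). Parp9 had 1662 and 1673 scaled counts in MYC-PyMT and 4929 and 3677 in Control-PyMT (-1.35, SE 0.20, limma adjusted p = 0.000504). Replicates of MYC-PyMT were nearly equal for both genes. Dtx3l, its partner and neighbour, had 1254 and 1085 scaled counts in MYC-PyMT and 3589 and 3119.7 in Control-PyMT (-1.52), and Parp12, on another chromosome, changed by -1.76. Parp14, Dtx3l and Parp9 lie together on chromosome 16 (35832874 to 35972605). Exons of Parp9 and Dtx3l overlap on opposite strands, over 9.40% of Parp9 and 8.00% of Dtx3l exon bases, and the strand setting of the counting is not given in the sources used here.

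TRIM21 is a cytosolic antibody receptor and ubiquitin ligase, TRIM30 proteins restrain signalling in mice, and SP100 belongs to nuclear bodies that silence viral DNA. Trim30a had 139.9 and 169 scaled counts in MYC-PyMT and 1749.8 and 1525 in Control-PyMT (log2 change -3.40, SE 0.23, limma adjusted p = 9.07e-06). Trim21 had 309 and 295 scaled counts in MYC-PyMT and 1722 and 1501 in Control-PyMT (-2.41). Both were far below Control-PyMT in each library. Sp100 fell least of the 3, with 1046 and 673 scaled counts in MYC-PyMT and 2206 and 1919 in Control-PyMT (-1.29, SE 0.24, limma adjusted p = 0.00174). Sp100 was higher in MYC-PyMT replicate 1 than in replicate 2, the opposite of most members.

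Rsad2 (viperin) makes a nucleotide analogue that ends viral RNA chains, from the product of its neighbour Cmpk2, a nucleotide kinase. Both fell by similar amounts. Cmpk2 had 648 and 479 scaled counts in MYC-PyMT and 1699 and 1921 in Control-PyMT (log2 change -1.70, SE 0.22, limma adjusted p = 0.000237). Rsad2 had 1047 and 917 scaled counts in MYC-PyMT and 2419 and 2354 in Control-PyMT (-1.28, SE 0.19, limma adjusted p = 0.000467). The pair lies on chromosome 12 (26442746 to 26479837) on opposite strands, and in both genes replicate 1 was the higher MYC-PyMT library.

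Of the RNA editing, exonuclease and helicase genes 4 of 5 fell, with a median log2 change of -1.31. Ddx60, a helicase that aids RIG-I-like sensors, had 68.4 and 113 scaled counts in MYC-PyMT and 1075 and 877 in Control-PyMT (log2 change -3.45, SE 0.30, limma adjusted p = 2.79e-05). Helz2, a helicase-domain coactivator of nuclear receptors, changed by -2.07, and Adar, which edits adenosine to inosine in double-stranded RNA, by -1.31. Rnf213, a very large ubiquitin ligase, had 2364 and 2259 scaled counts in MYC-PyMT and 4572 and 5435 in Control-PyMT (-1.11, SE 0.18, limma adjusted p = 0.000979). All 4 of these passed with separated groups. Isg20, an exonuclease that degrades single-stranded RNA, had 136 and 381 scaled counts in MYC-PyMT and 493 and 437 in Control-PyMT (-1.02, SE 0.41, limma adjusted p = 0.0631). Its MYC-PyMT libraries differed more than those of any other member, and replicate 2 came close to Control-PyMT. Without MYC-PyMT replicate 2 the change was -1.77, but over all alternatives it ran from -1.77 to -0.28, so its size depends on the libraries and settings used. With all 4 libraries Isg20 passed under a replicate block (limma adjusted p = 0.00495) and with the transcript length trend removed (0.0364).

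Schlafen proteins cut or bind transfer RNA or curb proliferation of lymphocytes, and SAMD9L restrains growth and virus translation. All 4 genes fell. Samd9l had 267 and 498 scaled counts in MYC-PyMT and 3328 and 2743 in Control-PyMT (log2 change -3.05, SE 0.29, limma adjusted p = 4.45e-05). Slfn8 had 137 and 158 scaled counts in MYC-PyMT and 1254 and 1143 in Control-PyMT (-3.02, SE 0.23, limma adjusted p = 1.48e-05). Both were low in each MYC-PyMT library. Slfn2, best known from T cells and monocytes, changed least, with 1037 and 1311 scaled counts in MYC-PyMT and 3759.5 and 2591 in Control-PyMT (-1.42, SE 0.23, limma adjusted p = 0.00084), and Slfn5 changed by -1.91. The 3 Schlafen genes lie on chromosome 11 (82951349 to 83070678), and 14.6% of Slfn8 windows occur in other Schlafen transcripts.

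Lgals9, a galectin that binds cell-surface sugars, and Lgals3bp, a secreted partner of galectins, were among the abundant members. Lgals3bp had 956 and 1063 scaled counts in MYC-PyMT and 5261 and 6268 in Control-PyMT (log2 change -2.51, SE 0.19, limma adjusted p = 1.46e-05). Lgals9 had 984 and 1259 scaled counts in MYC-PyMT and 5082 and 4629 in Control-PyMT (-2.12, SE 0.20, limma adjusted p = 4.24e-05). Both genes lie on chromosome 11 but far from each other, and no 50-base window of either occurs in another gene.

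The remaining 8 interferon-induced genes, whose products have varied or little known roles, all fell, with a median log2 change of -2.30. Ifi44 changed most of all 50 members, with 182 and 370.3 scaled counts in MYC-PyMT and 3595 and 3033 in Control-PyMT (log2 change -3.66, SE 0.31, limma adjusted p = 2.49e-05). Phf11d had 485 and 339.6 scaled counts in MYC-PyMT and 3102 and 2772 in Control-PyMT (-2.85). Xaf1, which binds the inhibitor of apoptosis XIAP, had 188 and 196 scaled counts in MYC-PyMT and 1319 and 1215 in Control-PyMT (-2.72). These were wide gaps beside the replicate differences. Epsti1 changed by -2.58 and Rtp4, a chaperone of membrane receptors, by -2.01.

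The short-protein genes Ifi27 and Ifi27l2a are neighbours on chromosome 12 (103434211 to 103443680). Ifi27 had 1731 and 1644 scaled counts in MYC-PyMT and 6878 and 6002 in Control-PyMT (log2 change -1.93, SE 0.18, limma adjusted p = 4.52e-05). Ifi27l2a had 223 and 353 scaled counts in MYC-PyMT and 635 and 770.4 in Control-PyMT (-1.31, SE 0.27, limma adjusted p = 0.00325). Ifi35 fell least of the 8, with 1138 and 1317 scaled counts in MYC-PyMT and 2152 and 1870.3 in Control-PyMT (-0.71, SE 0.19, limma adjusted p = 0.013). The groups did not overlap for any of these, but the Ifi35 call ended without MYC-PyMT replicate 1 (-0.61, limma adjusted p = 0.128).

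Levels per kilobase of exon (GENCODE exons merged over transcripts) allow genes to be compared with each other. The median member had 115 scaled counts per kilobase in MYC-PyMT and 460 in Control-PyMT. Ifitm2 and Ifitm3 led in both groups, Ifitm2 with 16458 in MYC-PyMT and 9566 in Control-PyMT, and Ifitm3 with 6189 in MYC-PyMT and 9410 in Control-PyMT. Next in Control-PyMT came Ifi27, with 1150 per kilobase in MYC-PyMT and 4390 in Control-PyMT, and Isg15, with 539 in MYC-PyMT and 3205 in Control-PyMT. Isg15 was rank 10 of the members in MYC-PyMT and rank 4 in Control-PyMT, while Bst2 was rank 3 in MYC-PyMT with 1608 per kilobase and rank 8 in Control-PyMT with 2008. Oas3 was the lowest in both, with 6.53 in MYC-PyMT and 33.1 in Control-PyMT. Across members, Spearman's rho of the log2 change with the log2 Control-PyMT level per kilobase was 0.09, and with exon length -0.28, beside -0.18 for exon length over all tested genes. These are descriptions over genes that share libraries.

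Summed over the 50 members, scaled counts were 43849 and 47395 in MYC-PyMT and 121205 and 112872 in Control-PyMT. Ifitm2 supplied 23.6% of that total in MYC-PyMT and 5.35% in Control-PyMT. Without Ifitm2 the sums were 33635 and 36049.8 in MYC-PyMT and 115059 and 106486 in Control-PyMT. Such sums favour long and abundant genes, so the medians above are the plainer summary.

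The 2 MYC-PyMT libraries were not equally low. Replicate 2 was above replicate 1 for 34 of the 50 members (68%), where 52.4% of all tested genes were, and the median difference was 0.24 in members and 0.02 over all genes on the log2 scale. In Control-PyMT, replicate 1 was above replicate 2 for 35 members (70%), where 55.7% of all genes were, with a median of replicate 2 minus replicate 1 of -0.17 in members and -0.07 over all genes. More than 0.5 of log2 difference in favour of MYC-PyMT replicate 2 was found for 13 members, led by Isg20 (1.48), Ifi44 (1.02), Oas1g (0.96) and Samd9l (0.90), and against it for 2, Sp100 and Phf11d. In Control-PyMT the differences past 0.5 were those of Ifitm1 and Slfn2. These gaps between replicates were small beside the group changes of most members, and no test was made of them.

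**Figure D3:**
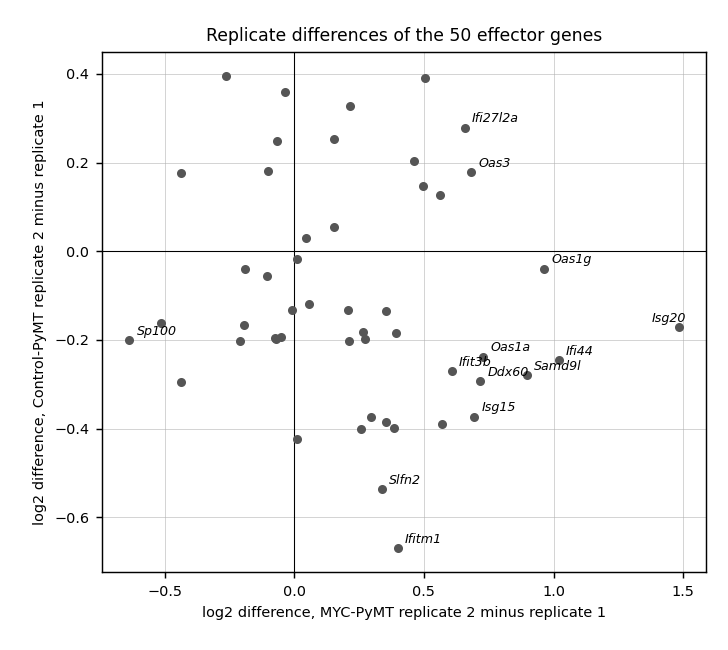
Each point is 1 of the 50 effector genes, with the log2 difference of MYC-PyMT replicate 2 minus replicate 1 across and of Control-PyMT replicate 2 minus replicate 1 up. The points lie mostly right of 0 (34 genes) and below 0 (35 genes), and Isg20 lies farthest right at 1.48.

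Other genes of the interferon pathway were lower too. Over 48 tested pathway genes, 34 fell and 0 rose by limma, and 14 did not pass, where 24.6% of all tested genes fell and 23.3% rose. Of 10 kinases and transcription factors, 8 fell, with a median log2 change of -1.55. Irf7, the master factor of interferon alpha genes and itself interferon-induced, had 496 and 790.1 scaled counts in MYC-PyMT and 5394 and 7226 in Control-PyMT (-3.32, SE 0.25, limma adjusted p = 1.56e-05). Stat2 and Irf9, which act together in binding the ISRE, also fell, with log2 changes of -1.84 for Stat2 and -1.82 for Irf9. Irf1, which acts more in the interferon gamma response, changed by -1.64.

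Of 6 receptor genes 3 fell, with a median log2 change of -0.38, but 1 did without Control-PyMT replicate 1, MYC-PyMT replicate 1 or MYC-PyMT replicate 2, under the replicate block and without the variance trend. Ifnlr1, the specific chain of the interferon lambda receptor, had 337 and 364 scaled counts in MYC-PyMT and 983 and 975 in Control-PyMT (-1.48), and Ifngr1 had a change of -0.55 (SE 0.19, limma adjusted p = 0.0395) whose call was among those lost under these 5 settings (0.0594 under the block, 0.0974 without the variance trend). Of 11 nucleic acid sensors and adaptors 7 fell. Zbp1, a sensor of Z-form nucleic acid, changed by -3.29 and Ifih1 (MDA5) by -2.20. Of 6 inhibitors of the pathway 1 fell, a share near that of all genes. It was Ptpn6 at -1.26, while Pias1 at -0.50 did not pass (limma adjusted p = 0.0655). With upper-quartile scaling 3 inhibitors fell. Usp18, an inhibitor counted among the members, fell by 2.84. The 9 interferon ligand genes sought, and Trex1, were not analysed here.

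GBP and IRG GTPases, which attack vacuoles of intracellular pathogens and respond strongly to interferon gamma, fell as well. Of 15 tested genes, 13 did not owe the level filter to Control-PyMT alone, and these 13 fell, with a median log2 change of -2.84, where 24.6% of all genes fell. Gbp8 (9.06 and 4.40 scaled counts in MYC-PyMT, 75.8 and 74.7 in Control-PyMT) and Tgtp1 (6.04 and 8.79 in MYC-PyMT, 121 and 105 in Control-PyMT) passed the filter through Control-PyMT alone, so their calls could only be lower. Without either Control-PyMT library 12 of the list were called lower. Iigp1 had 328 and 474 scaled counts in MYC-PyMT and 4457 and 3687 in Control-PyMT (-3.36, SE 0.23, limma adjusted p = 9.55e-06), and Irgm2 changed by -3.16. Gbp10, named after its values were seen, had no read in MYC-PyMT and 2.81 and 5.10 scaled counts in Control-PyMT, under the level filter. The pathway lists were drawn up with results of these data known, and their medians were not tested against each other.

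**Figure D4:**
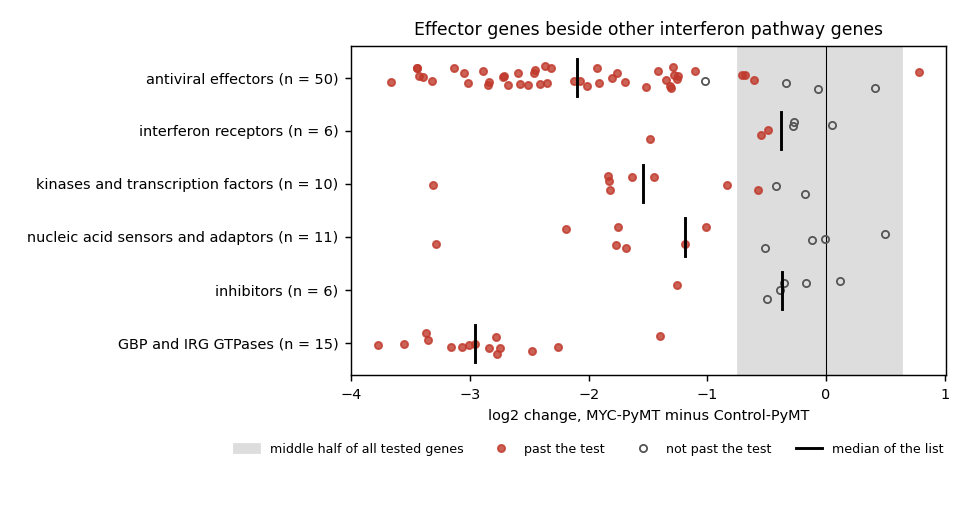
Log2 changes, MYC-PyMT minus Control-PyMT, of the 50 effector genes and of 5 lists of other interferon pathway genes, with the median of each list as a bar and the quartiles of all tested genes as a grey band. Effectors (median -2.10) and GBP and IRG GTPases (-2.96 over all 15 tested) lie mostly left of the band, while receptors (-0.38) and inhibitors (-0.37) lie mostly within it.

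Markers of immune cells moved along with the effectors in part. Of 12 tested markers of T and NK cells, 11 passed the level filter through Control-PyMT alone, so any call of theirs could only be lower. All 12 were called lower, where 24.6% of all tested genes were, with a median log2 change of -3.16. Only Nkg7 (-3.07) did not owe its direction to the filter. The 14 genes of the list summed to 51.3 and 54.9 scaled counts in MYC-PyMT and 568 and 651 in Control-PyMT. Cd8a had 4.03 and 4.40 scaled counts in MYC-PyMT and 92.6 and 78.1 in Control-PyMT. Prf1 had no read in MYC-PyMT replicate 1 and Ncr1 none in MYC-PyMT replicate 2, and no marker of any list had no read in both. When either Control-PyMT library was left out, the 11 T and NK markers that passed the filter through Control-PyMT alone were no longer tested. Ptprc, the marker of leukocytes in general, had 538 and 656 scaled counts in MYC-PyMT and 1334 and 1209.5 in Control-PyMT (log2 change -1.09, SE 0.21, limma adjusted p = 0.00203), while the other 5 pan-leukocyte genes did not pass and the list of 6 summed to 18551 and 18636 in MYC-PyMT and 16378 and 15569 in Control-PyMT. Most of that sum came from Lcp1, an actin-bundling protein, and the other 5 summed to 2930 and 3275 in MYC-PyMT and 3820 and 4186 in Control-PyMT, the opposite direction.

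Dendritic markers fell in 4 of 7 tested genes, where 24.6% of all tested genes fell. These were H2-Aa (log2 change -3.42) and H2-Ab1 (-2.82), which interferon gamma also induces, Itgax (-2.09) and Zbtb46 (-0.84). The Zbtb46 call (limma adjusted p = 0.0365) did not hold under every alternative. Xcr1, Clec9a and Ccr7 did not pass the test, and Xcr1 and Ccr7 met the level filter through Control-PyMT alone. The 8 genes of that list summed to 1765 and 1989 scaled counts in MYC-PyMT and 14304 and 15238 in Control-PyMT. Most of these counts came from H2-Aa and H2-Ab1. Without H2-Aa the other 7 summed to 1026 and 1290 in MYC-PyMT and 6410 and 7712 in Control-PyMT, of which H2-Ab1 supplied most. Of 3 tested markers of plasmacytoid dendritic cells, a cell type known for making interferon, Runx2 fell (-1.90), where 24.6% of all genes fell. Tcf4 did not pass (0.19, limma adjusted p = 0.41), and both its MYC-PyMT libraries lay above both Control-PyMT libraries. Siglech had 4.03 and 0 scaled counts in MYC-PyMT and 13.1 and 14.4 in Control-PyMT. It too passed the level filter through Control-PyMT alone, and its lower call (limma adjusted p = 0.0157) was lost without MYC-PyMT replicate 2 (0.0679). The 5 genes of the list, most of whose counts come from Tcf4, summed to 3084 and 2909 in MYC-PyMT and 2859.8 and 2963 in Control-PyMT. Of 12 macrophage and monocyte markers, 2 were lower, where 24.6% of all tested genes were, 2 were higher, where 23.3% were, and 8 did not pass the test. The list summed to 38671 and 42575 in MYC-PyMT and 35048 and 33128 in Control-PyMT. Without Lyz2, a lysozyme and the most abundant gene of that list, the sums were 19475 and 22883 in MYC-PyMT and 22488 and 22360 in Control-PyMT, and the groups overlapped. Neutrophil markers were called higher in 5 of 8 genes, where 23.3% of all genes rose. Ngp and Retnlg passed the level filter through MYC-PyMT alone, so their calls could only be higher, and 3 of the other 6 rose. Without MYC-PyMT replicate 2 fewer genes of the list were called higher. In all libraries the 8 genes summed to 4631 and 6629.9 in MYC-PyMT and 3646 and 1501 in Control-PyMT. Without S100a8, the most abundant gene of the list, whose groups overlapped, the sums were 3067 and 4106 in MYC-PyMT and 1308 and 862 in Control-PyMT. The part of these cell types in the changes of the effectors was not tested.

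Endothelial, fibroblast and epithelial lists each held genes called in both directions, with medians of 0.36, -0.08 and -0.32. Calls were 1 lower and 2 higher of 6 endothelial genes, 2 and 1 of 6 fibroblast genes, and 2 and 1 of 7 epithelial genes. Over all tested genes 24.6% were lower and 23.3% higher. The higher fibroblast call, Col1a1 (limma adjusted p = 0.0495), did not hold under every alternative. Of 4 tested B and plasma genes 1 was higher. The 1 called lower, Ms4a1, passed the level filter through Control-PyMT alone, so its call could only be lower. The median of that list was -0.31 with Ms4a1 and 0.10 without it. The epithelial list summed to 94723 and 107845 scaled counts in MYC-PyMT and 123200 and 115501 in Control-PyMT. RNA integrity numbers in the labels ran from 3.3 to 9.6 and are not tied to samples, so RNA quality cannot be set beside these values.

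**Figure D5:**
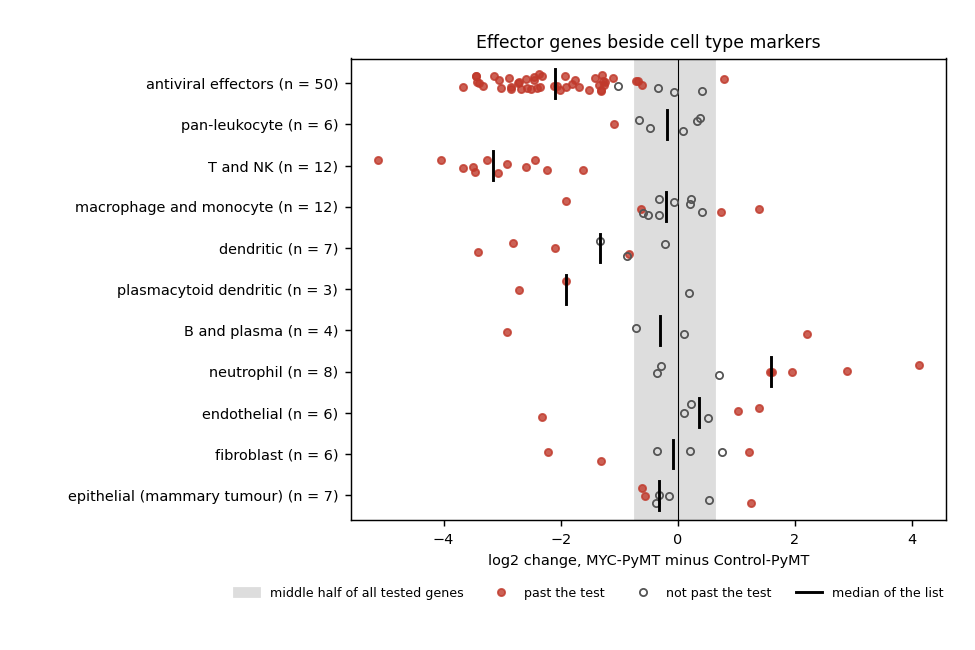
Log2 changes, MYC-PyMT minus Control-PyMT, of the 50 effector genes and of 10 lists of cell type markers, with list medians as bars and the quartiles of all tested genes as a grey band. T and NK markers (median -3.16) lie left of the band, neutrophil markers (1.59) mostly right of it or within it, and epithelial markers (-0.32) around it. Of the 12 tested T and NK markers, 11 passed the level filter through Control-PyMT alone, and the neutrophil markers Ngp and Retnlg through MYC-PyMT alone. The direction of these genes was set by that filter.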

How the data were processed

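Poly(A)-selected, strand-specific libraries were prepared from 500 ng of total RNA with 8 PCR cycles, per the labels' protocols. Per the submitters' processing notes, HISAT2, the mm10 (GRCm38.p5) genome and DESeq2 were used. Neither the counting software nor its strand option or annotation is given in the sources used here. The deposited table holds a signal per gene and library that the authors scaled: 100% of values were whole multiples of what 1 read is worth, within 0.001 reads, that is 1.01 and 1.10 scaled counts in MYC-PyMT and 0.935 and 0.849 in Control-PyMT. For MYC-PyMT replicate 1 that step lies close to 1, and the rule used to accept recovered reads takes no step so near 1, as a guard against rounding, although this column's values were whole multiples of it too. The planned count tests were therefore withdrawn and are not reported, and recovered reads served for depth, scaling factors and the check of replicates against counting noise. Replicates differed by more than counting noise (chi-square per degree of freedom 39.7 in MYC-PyMT and 54.7 in Control-PyMT), and intervals of counting error are not given.

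Values were tested with limma 3.58.1 (R 4.3.3; lmFit, eBayes with a variance trend, two-sided) on log2(value + 1), which understates changes of low genes, with Benjamini-Hochberg adjustment over all tested genes. An exact test of 2 against 2 libraries cannot go below p = 0.33. The fit was tested on simulated data. GENCODE M21 matched 20463 of the gene IDs and 92 were not matched. Promoters came from RefSeq (GRCm38.p6).

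The members and all lists were chosen with earlier results of these data known. Every member could be named. Values were given in full for the largest and smallest change of each role group, for members that rose or did not pass and for neighbours or copies. Of other lists, the 2 genes with the smallest p, genes against the list, and Stat2, Irf9, Irf7, Irf1 and Ptprc were named, and a few others were chosen after their values were seen. A gene that this rule names is not reported here. As alternatives, the pseudocount was set to 0.5 or 5, the level filter was dropped or raised to 50, values were rescaled by TMM or the upper quartile (edgeR 4.0.16), and the variance trend was dropped. Further ones were a replicate block, leaving out each library, and removal of each library's trend with transcript length.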

Additional observations from a re-analysis of the deposited data

How the results depend on the processing

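Of the 50 effector genes, 43 kept their direction and their side of the threshold under all 13 alternatives run. The 7 others were Oasl1, Ifitm2, Ifitm3, Ifi35, Isg20, Bst2 and Trim25. Besides the values in the report, Ifitm3 and Oasl1 did not pass without the variance trend (limma adjusted p = 0.0592 and 0.0632), Isg20 passed with the length trend removed (-1.18, 0.0364), and the Trim25 change was 0.0004 without Control-PyMT replicate 1 (0.998). Over the alternatives the Isg20 change ran from -1.77 to -0.28. The number of effectors higher was 0 with the length trend removed. Leaving out each library in turn gave 42 to 45 effectors lower, 0 to 1 higher and a median of -2.25 to -2.01. It gave 5824 to 6556 genes called in all, 2753 to 3431 lower and 2566 to 3662 higher, 30 to 31 pathway genes lower, 12 to 22 marker genes lower and 8 to 14 higher, against 27 and 12 in all 4 libraries. Without MYC-PyMT replicate 2, 2566 genes were higher and no effector was, and without Control-PyMT replicate 1 or 2, 12 and 13 marker genes were lower, with fewer genes past the level filter. With a level filter of 50, under which fewer genes are tested, 17 marker genes were lower. Upper-quartile scaling moved the median of all genes to -0.13 and that of effectors to -2.21. Without 1 library the lone library of a group is assumed to vary like the other group. With the replicate block Isg20 passed (0.00495) and no other effector changed its call; deviations of same-numbered libraries correlated at -0.09 over 16725 genes, so the numbers are not taken to pair the samples. The planned count tests (edgeR's quasi-likelihood test and DESeq2) were withdrawn and are not reported, and the planned protein identities were not run. The lowest value of any member was 35.2 scaled counts, and 2 libraries a group limit every p.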

Other observations

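Genes next to the effectors moved in both directions. The nearest tested protein-coding genes on either side that are neither members nor on the pathway lists were 70. Of these, 25 (35.7%) were lower in MYC-PyMT, beside 24.6% of all tested genes. A further 17 were higher, where 23.3% of all tested genes were, and 28 did not pass. The median log2 change of the 70 was -0.22. Some of these neighbours are relatives of the members. Trim30d had 45.3 and 52.7 scaled counts in MYC-PyMT and 526 and 389 in Control-PyMT (log2 change -3.18), and Phf11b 22.1 and 23.1 in MYC-PyMT and 114 and 93.4 in Control-PyMT (-2.14). Ifit1bl2, the nearest gene to Ifit1, had 26.2 and 46.2 in MYC-PyMT and 88.8 and 67.9 in Control-PyMT (-1.14, limma adjusted p = 0.0387). Ifit1bl1, which lies between Ifit3 and Ifit3b, had 133 and 182 in MYC-PyMT and 178 and 143 in Control-PyMT, with overlapping groups (-0.03, limma adjusted p = 0.94), and Slfn9 had a log2 change of -0.39 that did not pass (0.161). The members lie on 14 chromosomes, with 26 of them in 9 clusters and 24 elsewhere.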
